A study of Mus musculus with 4 samples.

Results

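The genes described here encode 10 histone H3 methyltransferases, enzymes that place methyl groups on lysine 9, lysine 36 or lysine 4 of histone H3. They were taken by symbol from the gene tables and are 10 of the 55335 genes in the count matrix. The H3K9 enzymes were *Ehmt1*, *Ehmt2*, *Setdb1*, *Suv39h1* and *Suv39h2*, the H3K36 enzymes *Setd2* and *Nsd1*, and the H3K4 enzymes *Kmt2a*, *Kmt2b* and *Kmt2d*. All 10 passed the filter on low counts.

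RNA of mouse oocytes was measured by Smart-Seq2, a cDNA amplification method for small samples. There were 2 libraries labelled mutant and 2 labelled control, all from C57BL/6 mice, with sample descriptions that carry the abbreviation MII. The mutation is a single-base change at a splice site of exon 3 of *Ezh2*, the gene for the catalytic subunit of the Polycomb complex that methylates lysine 27 of histone H3. The sources name a long and a short *Ezh2* form and do not tie the mutant label to either of them. No Cre or transgene is named for either group, and the age of the mice, the number of oocytes per library and whether the libraries of a group came from separate animals are not stated. *Ezh2* itself had 176 and 223 CPM in mutants and 313 and 239 CPM (reads relative to the scaled library size) in controls. The difference did not pass the test given below (log2 fold change of mutant over control -0.47, edgeR adjusted p = 0.219). A count per gene does not tell the *Ezh2* forms apart. Since separate animals are not named, p-values here reflect the spread of these 4 libraries alone, and that spread may be technical.

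Methyl marks on H3K9 are tied to compact, silent chromatin and to the silencing of retrotransposons. Marks on H3K36 are laid down in the bodies of transcribed genes, where in growing oocytes they are linked to the pattern of DNA methylation, and marks on H3K4 lie at promoters and enhancers. A growing oocyte stores RNA for the time after ovulation when it no longer transcribes, so RNA levels in a mature oocyte need not follow the activity of the enzymes.

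*Ehmt2* was the 1 member of the 10 whose RNA differed between the groups past the threshold, and it was higher in mutant oocytes. The threshold was an adjusted p under 0.05 in edgeR's quasi-likelihood test over 15493 genes. By the same test 3.75% of all tested genes passed, 1.77% in the higher and 1.98% in the lower direction. Of the other members 9 did not pass, among them *Kmt2a*, which had the second highest fold change. In simulated data with the same spread for every gene, this test recovered 2% of 2-fold and 43.8% of 4-fold changes. Those rates hold for that shared spread and are not rates for single genes here. *Smyd3*, described below, passed at a log2 fold change of -0.98. Among members that did not pass, the edgeR intervals of *Suv39h1* (-1.14 to 0.05), *Kmt2a* (0.89 to 3.82) and *Kmt2d* (-0.78 to 1.01) included a 2-fold change. The intervals of the other members that did not pass excluded it. A gene that did not pass may still differ between the groups. The median log2 fold change of mutant over control was 0.12 over the members, of which 7 were positive and 3 negative. Over all tested genes it was 0.05, with 8253 positive and 7240 negative.

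In CPM the groups did not overlap for 4 members, and neither did they for 54.6% of all tested genes. Mutants lay above controls for *Ehmt2* and *Kmt2a* and below them for *Suv39h1* and *Setd2*. With 2 libraries per group an exact permutation test of a single value cannot give a p below 0.333, so the tests rest on the fit across all genes.

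**Figure D1:**
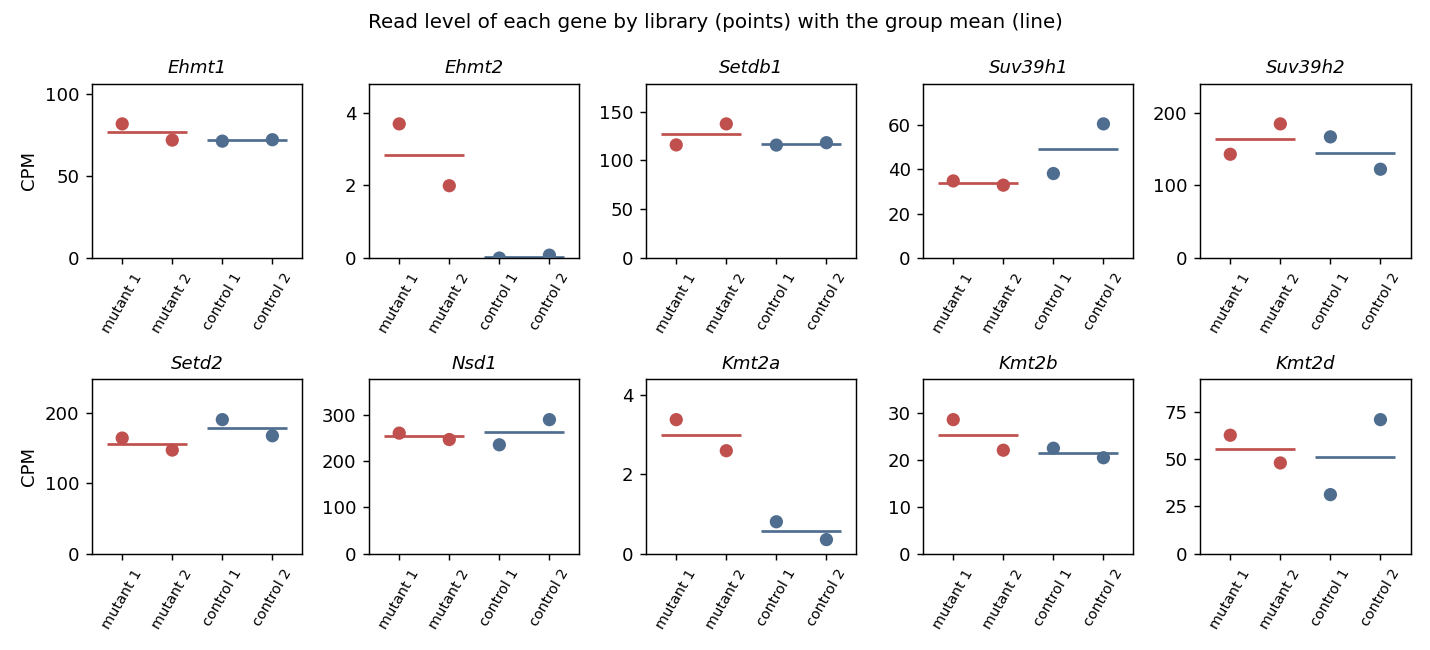
CPM of each member (vertical axis from 0, its own scale in each panel) in the mutant libraries and, to their right, the control libraries, with points for libraries and lines for group means. *Ehmt2* (3.69 and 1.99 CPM in mutants, 0 and 0.0794 CPM in controls) and *Kmt2a* stand apart by group at low levels, and mutants lie below controls for *Suv39h1* and *Setd2*.

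**Figure D2:**
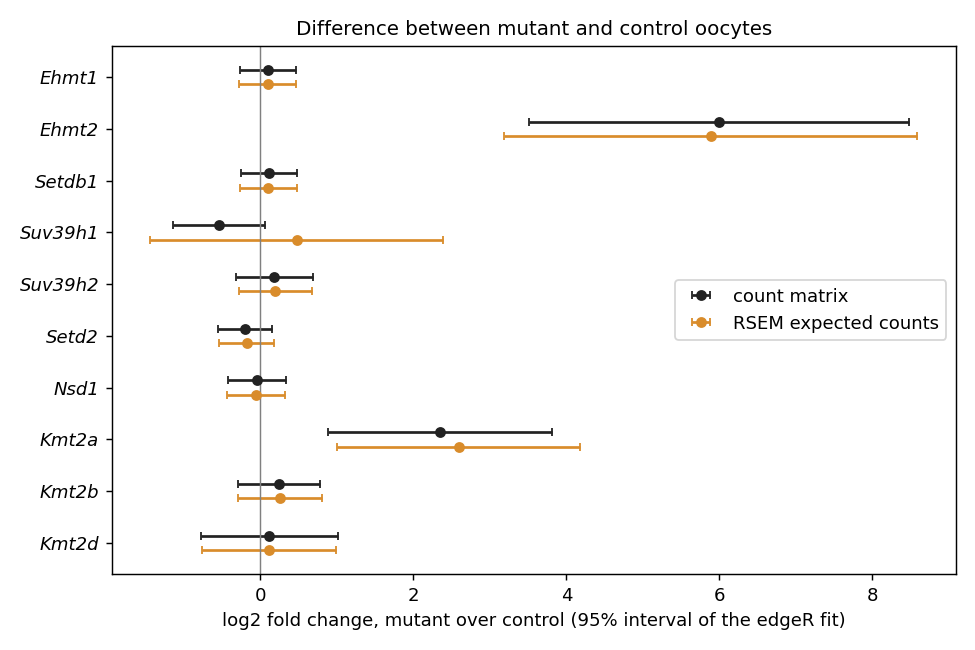
Log2 fold change of mutant over control for each member with its 95% interval from edgeR, from the count matrix and from RSEM expected counts. In the matrix the interval of *Ehmt2* (3.51 to 8.48) lies farthest from 0, that of *Kmt2a* (0.89 to 3.82) also lies above 0 though its adjusted p is 0.0828, and the other intervals include 0. *Suv39h1* is the member whose sign differs between the sources.

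*Ehmt2* encodes G9a, which with its partner GLP forms the main enzyme for mono- and dimethylation of H3K9 in euchromatin. It lies on the plus strand at chr17:34898469-34914052 of GRCm38, and none of its exon bases are shared with another gene. It had 104 and 53 counts in mutants 1 and 2, against 0 and 2 counts in controls 1 and 2. Those counts were 3.69 and 1.99 CPM in mutants, mean 2.84 ± 1.2 CPM (SD, n = 2), against 0 and 0.0794 CPM in controls. Both mutants lay above both controls, and the level in mutants was still low.

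The ratio of summed *Ehmt2* reads per library size was 71.7 (95% interval 19.5 to 597, counting error only), from 157 counts in mutants and 2 in controls. The edgeR log2 fold change was 5.99 (SE 1.03, adjusted p = 0.037), a size that depends on the prior count because the controls held so few reads. The authors' RSEM expected counts for *Ehmt2* were 100 and 45 in mutants and 0 and 2 in controls, with an edgeR adjusted p of 0.0422. By those counts 3.89% of the 13182 tested genes passed. Without control 1 the *Ehmt2* edgeR adjusted p was 0.284, and without control 2 it was 0.212. Without mutant 1 the log2 fold change of *Ehmt2* was 5.46 (edgeR adjusted p = 0.00373), and without mutant 2 it was 6.36 (edgeR adjusted p = 0.0191). In bulk samples fewer cells of a type and less RNA per cell cannot be told apart.

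Markers of other cells also differed between the libraries. The 15 cumulus and granulosa markers summed to 348 and 45.4 CPM in mutants 1 and 2, against 72.4 and 55.9 CPM in controls. Of them 1 and 5 were at 0 in the mutants and 5 and 7 in the controls, with *Lhcgr* at 0 in both mutants and *Foxl2*, *Amh* and *Amhr2* at 0 in both controls. The markers did not all run one way: 8 of the 10 tested markers had a higher fitted level in mutants and 2 a lower one, and 0 passed in edgeR (4 had an unadjusted p under 0.05). *Cyp19a1*, the aromatase gene, made up much of the control sums, at 16.4 and 23.6 CPM in mutants and 34.2 and 42.5 CPM in controls (edgeR adjusted p = 0.086). The 14 leukocyte markers summed to 13.5 and 158 CPM in mutants 1 and 2, against 5.96 and 6.27 CPM in controls. Of the leukocyte markers 5 and 1 were at 0 in mutants and 8 and 11 in controls. *Ptprc*, *Cd3e*, *Cd3g*, *Cd2*, *Tyrobp*, *Fcer1g*, *Coro1a* and *Nkg7* were at 0 in both controls. The 1 marker of these lists that passed was *Lyz2*, a lysozyme gene of myeloid cells, at 8.03 and 3.83 CPM in mutants and 0.362 and 0.0397 CPM in controls (log2 fold change 4.85, edgeR adjusted p = 0.0437). The 12 oocyte markers summed to 19680 and 20608 CPM in mutants and 20742 and 18201 CPM in controls, and 0 of them passed (4 had an unadjusted p under 0.05, and with RSEM counts 1 passed). The part of other cells in the *Ehmt2* and *Kmt2a* differences was not tested.

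The mean transcript length that RSEM gives for a gene weights each annotated transcript by its estimated abundance, so it bounds the share of full-length transcripts. A transcript counts as full-length here if its coding sequence is at least 90% of the longest one. The mean length of *Ehmt2* was 1368 bases in mutant 1 and 2264 bases in mutant 2, against 1359 bases from the 2 reads of control 2. Full-length *Ehmt2* transcripts, 3746 to 4026 bases long, could make up at most 24.8% of molecules in mutant 1 and from 26.6 to 53.1% in mutant 2, against at most 24.5% in control 2. The value in control 2 equals the length of Ehmt2-205, an annotated noncoding transcript that keeps introns. The start of its longest kept intron, chr17:34911026-34911175 on the plus strand of GRCm38, is shown because it separates that transcript from the coding ones. Capitals mark the first 120 of 307 intron bases that lie in no exon of a full-length transcript, from the GENCODE M21 transcripts.
Ehmt2-205: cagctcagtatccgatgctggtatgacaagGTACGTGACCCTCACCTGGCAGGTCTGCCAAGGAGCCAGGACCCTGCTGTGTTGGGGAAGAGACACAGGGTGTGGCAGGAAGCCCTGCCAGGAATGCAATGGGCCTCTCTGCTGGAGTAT

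The genes around *Ehmt2* were compared as well. *Slc44a4*, a choline transporter gene, starts 413 bases past the end of *Ehmt2*. It had 1.31 and 0.563 CPM in mutants and 3.42 and 5.20 CPM in controls. Mutants lay below controls, opposite to *Ehmt2*, and the difference did not pass (log2 fold change -2.19, edgeR adjusted p = 0.086). *C2*, on the minus strand, lies closer on the other side of *Ehmt2*. It had 0.249 and 0.902 CPM in mutants and 0.362 and 0.635 CPM in controls (log2 fold change 0.20, edgeR adjusted p = 0.922). A window of 500 kb on either side was chosen after the values were seen. In it 1 of 30 tested genes other than *Ehmt2* passed, against 3.75% of all tested genes. That gene was *H2-D1*, a class I histocompatibility gene, at 3.34 and 29.5 CPM in mutants and 0 in both controls (edgeR adjusted p = 0.0454).

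*Ehmt1* encodes GLP, the partner of G9a, on the minus strand at chr2:24789928-24919614. It had 82.0 and 72.1 CPM in mutants and 71.5 and 72.3 CPM in controls, so the groups overlapped. Its mean was 77.1 ± 7.01 CPM in mutants and 71.9 ± 0.613 CPM in controls (SD, n = 2 each). Its log2 fold change was 0.10 (95% interval -0.27 to 0.47, edgeR adjusted p = 0.752). The count of *Ehmt1* was 22.2 and 36.2 times that of *Ehmt2* in mutants and 911.5 times in control 2, with no ratio in control 1, where *Ehmt2* was at 0. The RNAs of the partners were thus far from equal in every library.

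*Setdb1* encodes the enzyme that trimethylates H3K9 at endogenous retroviruses when recruited by the corepressor *Trim28*, and lies on the minus strand at chr3:95323525-95357202. It had 115.9 and 137 CPM in mutants and 115.7 and 118 CPM in controls. The mean was 127 ± 15.2 CPM in mutants and 117 ± 1.73 CPM in controls (SD, n = 2 each), with overlapping groups and a log2 fold change of 0.12 (95% interval -0.25 to 0.48, edgeR adjusted p = 0.707). In TPM, the authors' length-scaled unit, *Setdb1* had 42.2 and 49.4 in mutants and 35.3 and 39.4 in controls, which did not overlap. TPM lacks the scaling between libraries that CPM has here. The share of all genes that do not overlap in TPM is not given, so this says little about *Setdb1* itself. *Trim28* itself had 59.2 and 51.0 CPM in mutants and 46.3 and 45.8 CPM in controls (log2 fold change 0.26, edgeR adjusted p = 0.414).

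*Suv39h1* and *Suv39h2* encode paralogous enzymes that trimethylate H3K9 in pericentric heterochromatin. *Suv39h2* lies on the minus strand at chr2:3455815-3475031. It had 143 and 184.8 CPM in mutants and 166.9 and 122 CPM in controls. The groups overlapped, with a mean of 164 ± 29.6 CPM in mutants and 145 ± 31.5 CPM in controls (SD, n = 2 each) and a log2 fold change of 0.18 (95% interval -0.32 to 0.68, edgeR adjusted p = 0.664). In TPM, *Suv39h2* had 144 and 187 in mutants and 138 and 109.6 in controls, without overlap but under the limit given for *Setdb1*. The 3′ part of the gene shares 357 exon bases with *Dclre1c* on the other strand. *Dclre1c* had 1116 and 1298 matrix counts in mutants and 1012 and 1045 in controls, but 362 and 376 RSEM counts in mutants and 289 and 405 in controls.

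*Suv39h1*, on the minus strand at chrX:8061171-8074760, had 34.7 and 32.8 CPM in mutants and 38 and 60.4 CPM in controls. Mutants lay below controls, but the difference did not pass (log2 fold change -0.54, SE 0.249, 95% interval -1.14 to 0.05, edgeR adjusted p = 0.254). The RSEM counts gave the opposite sign, 0.47 (95% interval -1.44 to 2.39, edgeR adjusted p = 0.781), so no direction can be given for *Suv39h1*.

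The deposited sources differed far more for *Suv39h1* than for any other member. The matrix held 977 and 873 *Suv39h1* counts in mutants and 944 and 1521 in controls. The RSEM tables held 17.25 and 31.47 *Suv39h1* counts in mutants and 11.85 and 19.5 in controls. Summed over the libraries the matrix count was 53.9 times the RSEM count, against a median of 1.1 over tested genes and 0.896 to 1.13 for the other members. A ratio of at least 20, RSEM counts of 0 included, was found for 1447 tested genes, or 9.34%.

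*Gm14820*, a gene on the opposite strand at chrX:8042943-8074619, shares 767 of the 5270 exon bases of *Suv39h1*, or 14.6%. *Gm14820* had 1235 and 1105 matrix counts in mutants and 1228 and 1964 in controls, and 1908 and 1652 RSEM counts in mutants and 1833 and 2886.5 in controls. *Suv39h1* took 44.2 and 44.1% of the matrix counts of the pair in mutants and 43.5 and 43.6% in controls. In the RSEM tables it took 0.896 and 1.87% in mutants and 0.642 and 0.671% in controls. The matrix counts of the genes thus stayed in nearly the same proportion in all 4 libraries, and the RSEM tables gave most reads to *Gm14820*. No source used here says whether counting took account of strand or how the matrix treated reads in shared bases. The matrix counts therefore cannot be relied on to separate the partners. *Gm14820* itself did not pass in the matrix (log2 fold change -0.58, edgeR adjusted p = 0.219) or in RSEM counts (log2 fold change -0.53, edgeR adjusted p = 0.224).

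A stretch of the exons that overlap is shown as each gene reads it, to make the sharing visible. A 663-base coding exon of Suv39h1-203 contains the whole 429-base exon of Gm14820-201 at chrX:8070636-8071064. The 120 bases of *Suv39h1* are chrX:8070588-8070707 on the minus strand and the 72 bases of *Gm14820* are chrX:8070636-8070707 on the plus strand, both from GENCODE M21 on GRCm38. Capitals mark the 72 bases in both exons, which are reverse complements of each other.
Suv39h1-203: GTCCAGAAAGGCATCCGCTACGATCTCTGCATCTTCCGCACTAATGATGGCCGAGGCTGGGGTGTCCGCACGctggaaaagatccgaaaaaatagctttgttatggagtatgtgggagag
Gm14820-201: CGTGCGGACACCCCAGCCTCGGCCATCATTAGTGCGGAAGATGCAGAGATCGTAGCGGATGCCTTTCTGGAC

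**Figure D3:**
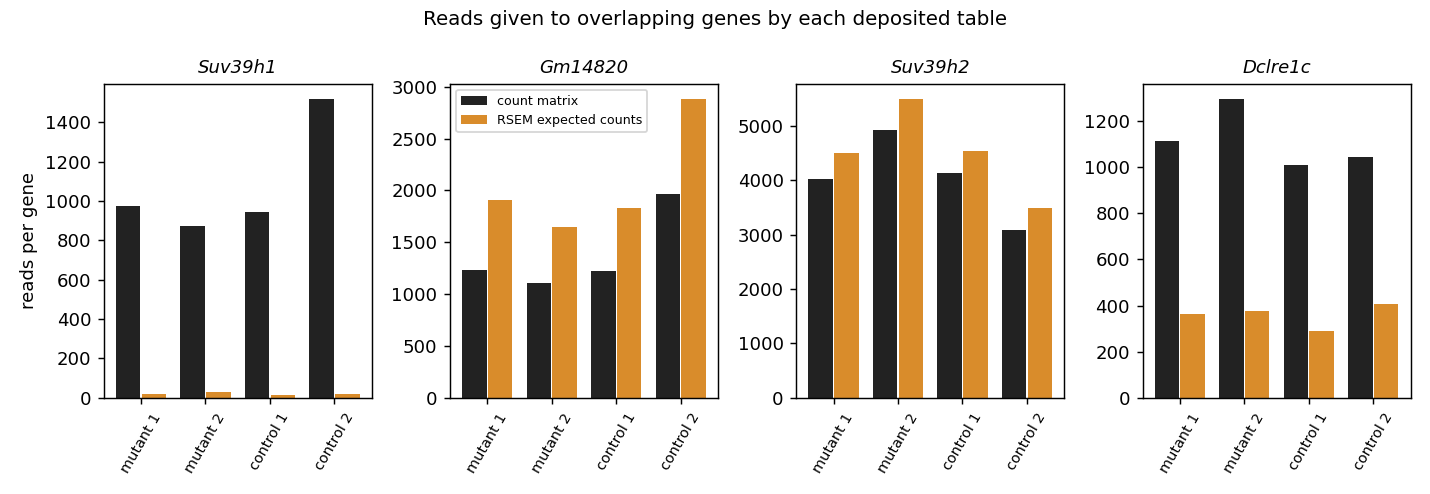
Reads per library given to *Suv39h1* and its antisense neighbour *Gm14820*, and to *Suv39h2* and its neighbour *Dclre1c*, as bars for the deposited matrix (black) and the RSEM tables (orange), each panel on its own scale. *Suv39h1* had 873 to 1521 counts in the matrix and 11.85 to 31.47 in the RSEM tables, while *Suv39h2* had somewhat more reads in the RSEM tables than in the matrix.

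Neither H3K36 enzyme passed in edgeR, or in DESeq2, or with an unadjusted p under 0.05. *Setd2* encodes the main enzyme for trimethylation of H3K36 and lies on the plus strand at chr9:110532597-110618633. It had 164 and 147 CPM in mutants and 190.5 and 167.6 CPM in controls. Mutants lay below controls, with a mean of 156 ± 12.1 CPM in mutants and 179 ± 16.2 CPM in controls (SD, n = 2 each), and the difference did not pass (log2 fold change -0.20, 95% interval -0.56 to 0.16, edgeR adjusted p = 0.476). In TPM the *Setd2* groups overlapped, at 117 and 94.1 in mutants and 103 and 97.6 in controls.

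*Nsd1* encodes a mono- and dimethyltransferase of H3K36 and lies on the plus strand at chr13:55209782-55318325. It had 259.9 and 246 CPM in mutants and 234.7 and 289 CPM in controls, and the mutants lay inside the range of the controls. Its log2 fold change was -0.05 (95% interval -0.43 to 0.33, edgeR adjusted p = 0.888). Like *Setd2*, *Nsd1* shares no exon base with another gene.

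Among the H3K4 enzymes 0 passed in edgeR, 1 had an unadjusted p under 0.05, and DESeq2 called 1, in both cases *Kmt2a*. *Kmt2a* encodes MLL1, the trithorax homologue known for keeping *Hox* genes active, on the minus strand at chr9:44803355-44881296. It had 95 and 69 counts in mutants and 20 and 9 counts in controls. Those were 3.37 and 2.59 CPM in mutants, mean 2.98 ± 0.553 CPM, and 0.805 and 0.357 CPM in controls, mean 0.581 ± 0.317 CPM (SD, n = 2 each). Both mutants lay above both controls, at a fitted fold change of 5.10 (log2 fold change 2.35, SE 0.610, 95% interval 0.89 to 3.82), with an edgeR adjusted p of 0.0828. With DESeq2 the *Kmt2a* adjusted p was 0.0452, and with edgeR on RSEM counts it was 0.0772. With 1 library left out in turn its log2 fold change lay between 1.83 and 3.04, and it did not pass in any of these fits.

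*Kmt2b* encodes MLL2, the enzyme on which most H3K4 trimethylation of mouse oocytes depends, and lies on the minus strand at chr7:30568858-30588726. It had 28.7 and 22.1 CPM in mutants and 22.6 and 20.5 CPM in controls. The groups overlapped in CPM, and the log2 fold change was 0.24 (95% interval -0.30 to 0.77, edgeR adjusted p = 0.58). In TPM they did not overlap, at 7.3 and 5.56 in mutants and 4.85 and 4.7 in controls, under the limit given for *Setdb1*. *Kmt2b* had 8.49 and 8.54 times the counts of its relative *Kmt2a* in mutants, and 28 and 57.4 times in controls. These ratios take no account of length. In TPM *Kmt2a* had 0.44 and 0.24 in mutants and 0.14 and 0.12 in controls.

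*Kmt2d* encodes MLL4, which with its relative *Kmt2c* monomethylates H3K4 at enhancers, and lies on the minus strand at chr15:98831669-98871204. It had 62.6 and 48.0 CPM in mutants and 31.2 and 70.8 CPM in controls. The controls differed from each other more than the groups did, and the log2 fold change was 0.12 (95% interval -0.78 to 1.01, edgeR adjusted p = 0.891). *Kmt2c* was more abundant, at 818 and 880 CPM in mutants and 819 and 836 CPM in controls (log2 fold change 0.04, edgeR adjusted p = 0.911).

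Levels of different genes were compared per length, by the mean TPM over the 4 libraries. *Suv39h2* stood highest at 144 TPM, followed by *Ehmt1* at 124 and *Setd2* at 103, and the library ranges of neighbours in this order overlapped. *Nsd1* at 62.6 and *Setdb1* at 41.6 TPM followed, each separate from its neighbours in all 4 libraries. *Kmt2b* at 5.60, *Kmt2d* at 3.91, *Ehmt2* at 1.77 and *Suv39h1* at 1.045 TPM formed a lower run whose neighbours overlapped. *Kmt2a* had the lowest mean over the 4 libraries, 0.235 TPM, below all libraries of *Suv39h1*. The bottom place differed by group, since *Kmt2a* was below *Ehmt2* in mutants (0.44 and 0.24 against 5.56 and 1.41 TPM) and above it in controls (0.14 and 0.12 against 0 and 0.11 TPM). Among the 21617 genes with a TPM above 0 in any library, the members ranked between 1067 for *Suv39h2* and 15004 for *Kmt2a*.

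The order depends on the length used. By CPM per kb of annotated exon, chosen after the values were seen, *Suv39h2* again had the highest mean over the 4 libraries, 35.0, and *Kmt2a* the lowest, 0.107, and 5 members changed place. In the controls alone *Ehmt2*, at 0 and 0.0145, was again below *Kmt2a*, at 0.0483 and 0.0214. *Ehmt1* stood in the fifth place at 9.18. *Suv39h1* stood above *Kmt2d* and *Kmt2b* at 7.87, by the matrix counts, which for this gene far exceed the RSEM counts. The low levels of *Ehmt2*, at 0.262, and of *Kmt2a* held on both scales.

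**Figure D4:**
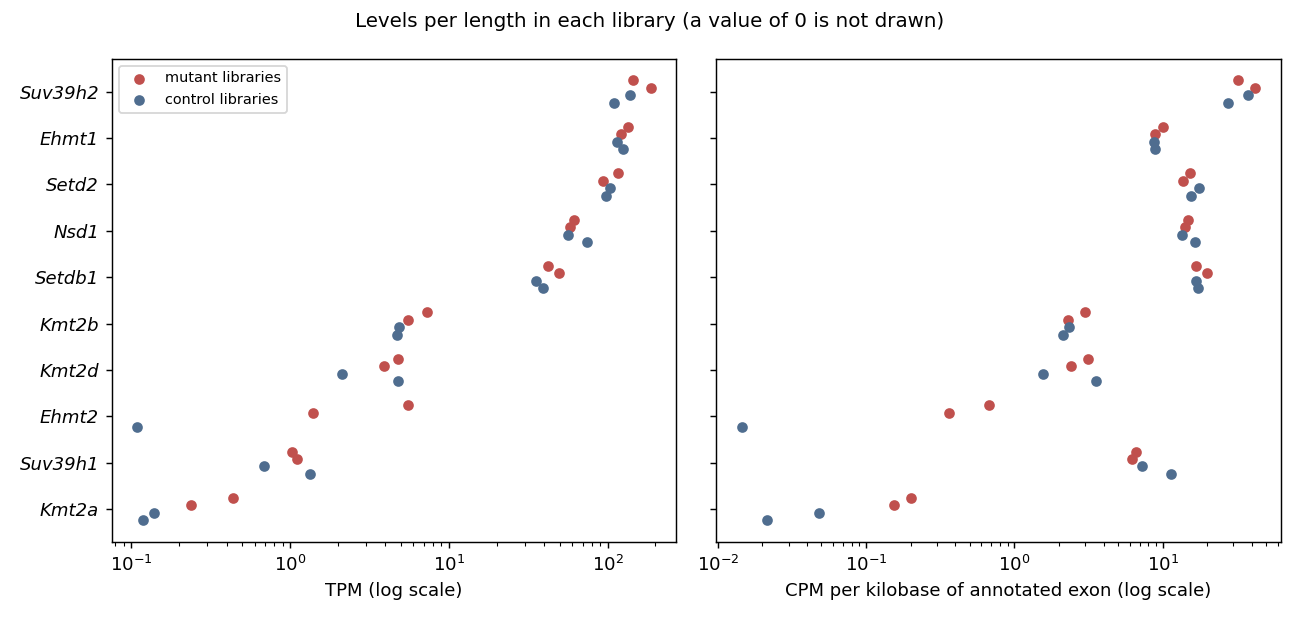
Level of each member per length on log axes, as TPM and as matrix CPM per kb of annotated exon, one point per library, with the value of 0 of *Ehmt2* in control 1 not drawn. *Suv39h2* has the highest mean on both scales, the lowest points are those of *Kmt2a* and of *Ehmt2* in control 2, and *Suv39h1* is at 1.045 TPM but 7.87 CPM per kb.

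Mean transcript length was examined after the values were seen, and no member passed the test of its difference (limma). The length of *Nsd1* was 6474 and 6388 bases in mutants and 5381 and 5425 bases in controls, 1.19-fold longer in mutants with no overlap. Full-length *Nsd1* transcripts, of 9905 or 12784 bases, could make up 41.4 to 64.1% of molecules in mutant 1 and 40.6 to 63.2% in mutant 2. In the controls the bounds were 31.3 to 52.7% and 31.7 to 53.2%. The bounds of the groups overlap, so these tables do not fix a difference in the full-length share.

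The length of *Ehmt1* was 1291 and 1252 bases in mutants and 1151 and 1154 bases in controls, 1.1-fold longer in mutants with no overlap. The 6 full-length *Ehmt1* transcripts measure 4539 to 5953 bases, so they could make up at most 21.2 and 20.3% of *Ehmt1* molecules in mutants and 17.8 and 17.9% in controls. The bound is on molecules, not on reads or bases, of which longer transcripts give more. The same bound was at most 14.6% for *Suv39h2* and 28.8% for *Setd2* in any library. *Kmt2d* was the opposite case, with a full-length share of at least 87.8% in every library.

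Neither the *Nsd1* nor the *Ehmt1* length difference passed. With limma on log2 length 0.0% of the 5647 genes tested passed, although 689 had an unadjusted p under 0.05. The adjusted p was 0.123 for *Nsd1* and 0.218 for *Ehmt1*. The groups did not overlap in length for 4 of the 7 members tested, and for 43.2% of all genes tested, and they also differed by at least 10% for 15.1% of all. *Kmt2a* was too low for this test. Its mean length was 12439 and 15852 bases in mutants, against 6120 and 4225 bases in controls from 15 and 8 RSEM counts.

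**Figure D5:**
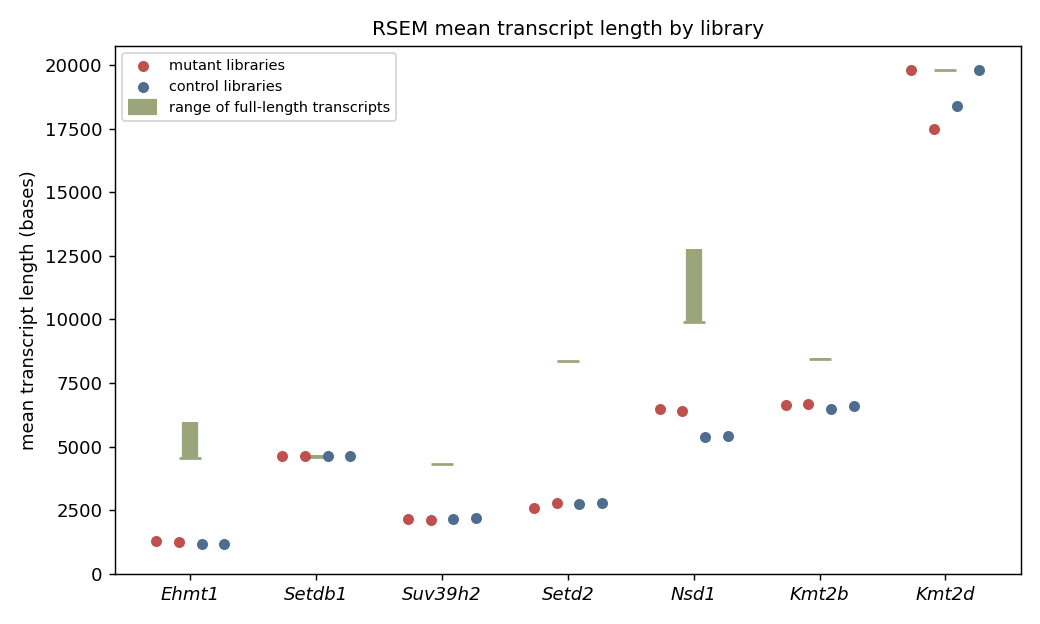
RSEM mean transcript length in bases of the 7 members tested, one point per library with mutants left of controls, and the length range of their full-length transcripts in green. *Nsd1* (6474 and 6388 bases in mutants, 5381 and 5425 in controls) separates most by group, and *Ehmt1*, *Suv39h2* and *Setd2* lie far below their full-length transcripts.

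The other genes of these pathways were taken from 8 lists of partners, relatives and opposing demethylases. Of 82 such genes 74 were tested and 2 passed, or 2.70% against 3.75% of all genes. The median log2 fold change over the 74 was 0.22, with 56 positive and 18 negative, against 0.05 over all tested genes. An unadjusted p under 0.05 was found for 16 of them, or 21.6%, against 3557 of all tested genes, or 23.0%.

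The 1 companion gene that rose was *Prdm2*, which encodes RIZ1, a PR domain protein with H3K9 methyltransferase activity. It had 71.3 and 75.8 CPM in mutants and 27.2 and 36.3 CPM in controls, with no overlap (log2 fold change 1.21, SE 0.198, edgeR adjusted p = 0.0319). With RSEM counts its edgeR adjusted p was 0.0526, and without control 1 or control 2 it was 0.268 or 0.191. *Prdm2* was 1 of 19 tested genes on the list of H3K9 partners and readers, whose median log2 fold change was 0.26 (12 positive, 7 negative). On that list *Tasor*, a subunit of the HUSH silencing complex, had 47.7 and 44.4 CPM in mutants and 30.2 and 24.4 CPM in controls without passing (log2 fold change 0.75, edgeR adjusted p = 0.0815). *Cbx1*, which encodes the H3K9 methyl reader HP1 beta, had 51.0 and 56.5 CPM in mutants and 82.2 and 79.3 CPM in controls and did not pass either (log2 fold change -0.59, edgeR adjusted p = 0.0849). Nor did *Zfp644* of the same list, at 70.1 and 63.1 CPM in mutants and 45.7 and 43.0 CPM in controls (log2 fold change 0.59, edgeR adjusted p = 0.0937).

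The 1 companion gene that fell was *Smyd3*, a SET and MYND domain methyltransferase described for H3K4. It had 68.5 and 70.3 CPM in mutants and 140.3 and 133.5 CPM in controls, with no overlap (log2 fold change -0.98, SE 0.141, edgeR adjusted p = 0.0224). Without control 1 the *Smyd3* adjusted p was 0.235, and without control 2 it was 0.207. The 7 tested genes of its list, other H3K4 methyltransferases, had a median log2 fold change of 0.10.

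On the remaining lists edgeR called no gene. For the 16 tested subunits of the H3K4 complexes the median log2 fold change was 0.18 (13 positive, 3 negative, 1 with an unadjusted p under 0.05). The core subunit *Dpy30* had 276 and 281 CPM in mutants and 377 and 363 CPM in controls (log2 fold change -0.41, edgeR adjusted p = 0.137). The 15 tested H3K36 methyltransferases and readers had a median of 0.24, with 13 positive and 2 negative, and 4 had an unadjusted p under 0.05. *Phf19*, a Polycomb partner that reads H3K36 methylation, had 5.15 and 5.63 CPM in mutants and 11.4 and 15.1 CPM in controls (log2 fold change -1.30, edgeR adjusted p = 0.0675).

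Among the demethylases, which remove the marks, 0 of 10 for H3K9, 0 of 3 for H3K36 and 0 of 5 for H3K4 passed, with 1, 0 and 2 of them at an unadjusted p under 0.05. The median log2 fold changes of the demethylase lists were 0.37, 0.15 and -0.01. *Kdm4c*, which demethylates H3K9 and H3K36, had the lowest adjusted p, at 2.81 and 1.77 CPM in mutants and 0.362 and 0.238 CPM in controls (log2 fold change 2.91, edgeR adjusted p = 0.0619). The 2 most abundant demethylase genes of each list, by mean TPM, did not pass. For H3K9 these were *Kdm7a*, at 495 and 599 CPM in mutants and 472 and 396 CPM in controls (edgeR adjusted p = 0.3), and *Phf8* (edgeR adjusted p = 0.445). For H3K36 they were *Kdm2a* and *Kdm2b* (edgeR adjusted p = 0.806 and 0.405), and for H3K4 *Kdm1a* and *Kdm1b*, genes for flavin-dependent demethylases (edgeR adjusted p = 0.987 and 0.912). The abundant H3K36 readers *Psip1* and *Mtf2* (edgeR adjusted p = 0.827 and 0.523) and the abundant HUSH genes *Mphosph8* and *Pphln1* (edgeR adjusted p = 0.404 and 0.167) did not pass either.

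Of the 3 tested H3K79 and H4K20 methyltransferases 0 passed and 1 had an unadjusted p under 0.05, with a median of 0.03. The most abundant were *Dot1l* and *Kmt5a* (edgeR adjusted p = 0.961 and 0.709). *Tasor*, *Cbx1*, *Zfp644*, *Phf19*, *Kdm4c*, *Trim28* and *Cyp19a1* were picked for naming after their values were seen.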

How the data were processed

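RNA of 2 mutant and 2 control mouse oocyte libraries was measured by Smart-Seq2, and groups and replicate numbers were taken from the sample titles. A series matrix of raw counts, whole numbers without normalization, was deposited by the authors. Per the file headers they also deposited RSEM gene tables per library with expected counts, in which reads that fit several genes are divided between them. TPM and FPKM values were deposited by the authors in the same tables, as were transcript lengths in bases. The submitters' processing notes name cutadapt 1.16, STAR, RSEM and the mm10 build. The role of each tool, the counter behind the matrix and its strand setting are not stated in the sources at hand.

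The matrix held 25090032 to 26617816 counts per library and RSEM assigned from 23618071 to 25112078. Libraries of 1 group differed beyond sampling noise (chi-square per degree of freedom 48.3 in mutants and 32.1 in controls). Of 55335 gene IDs, 55154 matched GENCODE M21 without the version number, which gave coordinates, exon overlaps, transcripts and sequences. Intervals cover counting error only where so named, because amplified reads are not independent molecules.

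Differences in matrix counts were tested by quasi-likelihood in edgeR 4.0.16 under R 4.3.3 (filterByExpr, TMM scaling, a genotype term alone, 2 residual degrees of freedom, Benjamini-Hochberg adjusted p under 0.05), after tests on simulated data. Each SE was obtained as the fitted log2 difference over the root of its F statistic. RSEM counts were rounded and tested likewise. Transcript lengths were tested with limma 3.58.1 for genes with at least 100.0 expected counts in every library. DESeq2 1.42.0, other scalings, filters, thresholds, a replicate block and leaving out each library were alternatives. Named genes are the members, companion genes past the threshold and the most abundant companion genes, besides those said to be chosen later. The members, the lists and the tests were chosen with earlier results of these data known, and the comparison of sources, the transcript lengths and the window around *Ehmt2* were added after the values were seen.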

Additional observations from a re-analysis of the deposited data

How the results depend on the processing

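Counts of calls moved most. Genes called higher numbered 274 and genes called lower 307, of 15493 tested. Of 26406 genes they were 978 and 908 with DESeq2, and 749 and 573 with no filter on low counts. Of 15493 genes they were 730 and 483 with a replicate block, and 925 and 796 at an adjusted p under 0.1. Leaving out 1 library in turn gave 10 to 962 higher and 12 to 726 lower. Genes called higher were 962 or 656 when mutant 1 or mutant 2 was left out, and 10 or 13 when control 1 or control 2 was. In these fits the lone library of a group is assumed to vary like the other group.

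Members called higher numbered 1. They were 2 of 10 with DESeq2, with the replicate block and at the threshold of 0.1, where *Kmt2a* joined *Ehmt2*. Over all genes 978 of 26406, 730 of 15493 and 925 of 15493 were called higher under these alternatives. The count was 0 under a filter on mean CPM, where neither gene was tested, and 0 to 1 with 1 library left out. Members called lower were 0 throughout. Companion genes called higher, 1 in the report, were 4 with DESeq2, 0 with RSEM counts, 2 with no filter, 2 with the block, 4 at 0.1, and 0 to 1 with 1 library left out. Companion genes called lower, also 1, were 4, 1, 2, 2 and 3 under the same alternatives, and 0 to 2 with 1 library left out.

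The replicate block gave *Kmt2a* an edgeR adjusted p of 0.0484. Same-numbered libraries deviated together only weakly (correlation 0.176 over genes), and with 2 pairs the numbers are not shown to pair the libraries.

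Of 108 log2 fold changes of members under the alternatives 95 kept their direction and side of the threshold, and 8 changed sign, none past the threshold. The 108 include the threshold of 0.1 applied to the main fit itself, where no fold change could differ. *Suv39h1* was 0.47 with RSEM counts. With 1 library left out *Ehmt1* lay between -0.0135 and 0.18, *Setdb1* between -0.0226 and 0.22, *Suv39h2* between -0.0735 and 0.41, *Nsd1* between -0.20 and 0.0593, and *Kmt2d* between -0.37 and 0.77. *Ehmt2* stayed between 5.07 and 9.22 and *Kmt2a* between 1.83 and 3.04. The order of levels changed in 5 places by counts per kb of RSEM length and in 5 by CPM per kb of annotated exon, an alternative chosen after seeing the data. The cause of these shifts was not tested. Depth limits *Ehmt2* and *Kmt2a*, which rest on 2 and 29 control counts.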
